A study of Drosophila melanogaster with 24 samples.

Results

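The Cpr genes of Drosophila melanogaster encode cuticle proteins that share the Rebers-Riddiford (R&R) domain. They were taken here as the probe sets whose single gene symbol starts with Cpr and a number, which gave 67 of 18769 probe sets, for 66 of the 11982 genes named by a probe set of their own. Cpr47Ef was read by 2 probe sets. A further 4 probe sets listed a Cpr gene together with another gene and were left out, since their signal cannot be given to 1 gene (Cpr65Ax1 with Cpr65Ax2, Cpr67Fa1 with Cpr67Fa2, and Cpr57A with Obp57d on 2 probe sets).

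The populations descended from 27 pooled isogenic lines. SO2A flies had been selected for survival in hyperoxia and were kept in 90% O2, and generation-matched control flies were kept in normoxia at 21% O2. Adults were pools of 25 males and 25 females, larvae were whole animals of the 3rd instar, and every combination of selection and stage was measured on 6 Affymetrix Drosophila Genome 2.0 arrays, from 3 populations with 2 arrays each. Selection and the O2 in which the adults lived cannot be told apart in this design. For larvae, neither the O2 level nor the age within the instar is given in the sources used here, nor is it said whether the 2 arrays of a population came from separate pools. In whole animals, fewer epidermal cells and less RNA per cell cannot be told apart.

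The insect cuticle is a composite of chitin fibres and proteins secreted by the epidermis. The R&R domain binds chitin, and its RR-1 form is found mostly in proteins of soft cuticle and its RR-2 form mostly in proteins of hard cuticle. Larvae shed and rebuild a soft cuticle at each moult, whereas adult flies harden theirs after eclosion, and different members of the family serve different moults. Many Cpr genes lie in tandem clusters, and the number and first letter of a symbol give the cytological site.

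The values were microarray signals on a linear scale. Without its highest and lowest 2% of values, each of the 24 arrays averaged 2500.1, and array medians lay between 409.6 and 697.4. A probe set was taken as detected in a group where its signal was above the median of its array on at least 4 of 6 arrays. Differences are on the log2 scale, SO2A minus control or adult minus larva, and were tested with limma over all probe sets at a Benjamini-Hochberg adjusted p under 0.05. Adult marker genes were higher in adults than in larvae for 10 of 10 measured, and larval marker genes lower for 7 of 7, among the SO2A arrays.

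Control arrays alone set the stage groups, and the stage values of control arrays are therefore given as a description. A member was larval where it was detected in larvae and at least 4-fold lower in adults, adult where the reverse held, and both where it was detected at both stages with a smaller difference. The larval group held 24 probe sets (35.8% of the family), against 5.67% of all probe sets of the array. The adult group held 4, which was 5.97% against 4.77% of all probe sets. The group of both stages held 3 (4.48%, against 39.1% of all probe sets), and 36 fell in none of them (53.7% against 50.5%).

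**Figure D1:**
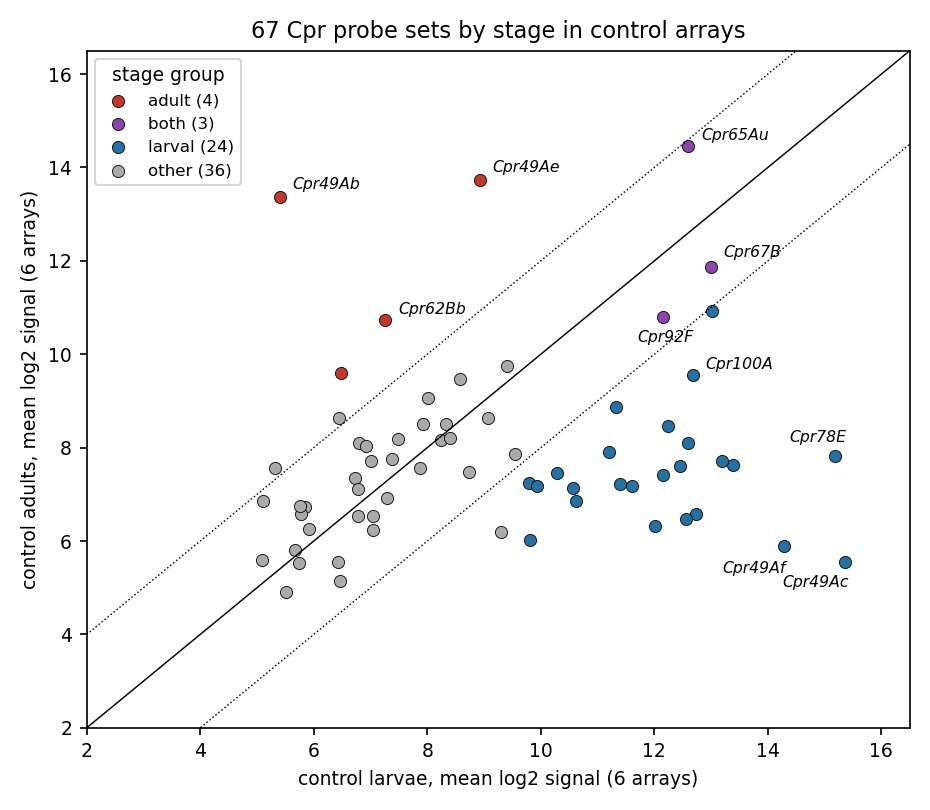
Mean log2 signal of each of the 67 Cpr probe sets in control adults (vertical axis) and control larvae (horizontal axis), 6 arrays each, with the equal line solid and the 4-fold lines dotted. The 24 larval probe sets lie below the lower dotted line, and Cpr49Ab, Cpr49Ae, Cpr62Bb and 1 probe set of Cpr47Ef lie above the upper one, while grey points beyond a dotted line were not detected at the stage where they are higher.

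Cpr49Ac stood furthest to the larval side. Its signal in control adults was between 13.4 and 105 with a median of 62.0, and in control larvae between 34193 and 53815 with a median of 41972. With signals held to at least 90.4, the 20th percentile of all signals, its control larvae were 455-fold above control adults. Cpr49Af had a median of 57.0 in control adults and 21272 in control larvae, a 214-fold difference on the same basis. Cpr78E (241 and 37612) was 166-fold and Cpr11B (101 and 6577) 53.8-fold higher in larvae. No array of control adults came near the larval range for any of the 4.

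Cpr49Ab stood furthest to the adult side. Its median signal was 10950 in control adults and 38.0 in control larvae, 113-fold higher in adults with the same lower limit. Cpr49Ae had medians of 14295 in control adults and 477 in control larvae, a 27.7-fold difference. Cpr62Bb (1668 and 154) and the adult probe set of Cpr47Ef (883 and 74.5) were 10.4-fold and 6.39-fold higher in control adults. The second probe set of Cpr47Ef was below the array median on every array, between 23.8 and 341 over the 24, so the stage pattern of this gene rests on 1 of its 2 probe sets.

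The 3 members present at both stages did not share a direction. Cpr65Au was higher in control adults (median 22892) than in control larvae (median 6954), by 1.86 on the log2 scale. Cpr67B (3696 in adults and 8408 in larvae) and Cpr92F (1890 in adults and 4315 in larvae) were lower in control adults, with differences of -1.14 and -1.35.

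The SO2A arrays were not used to form the groups and gave the stage pattern its test. All 24 larval members were lower in SO2A adults than in SO2A larvae past the threshold, by log2 differences between -8.48 and -1.58, where 17.5% of all probe sets were called in that direction. Of the 1064 probe sets of the array that met the larval criterion, 97.9% were called lower, so the larval members kept their stage as others grouped this way did. All 4 adult members were called higher in SO2A adults, by 1.64 to 6.55, where 31.8% of all probe sets, and 876 of the 896 that met the adult criterion, were called that way. Cpr67B and Cpr92F were lower in SO2A adults and Cpr65Au was higher, each past the threshold. Of the 36 members outside these groups, 31 were not called. The other 5, picked out after their values were seen, were Cpr31A (-2.33) and Cpr56F (-2.54), lower in adults, and Cpr47Ee (2.74) and Cpr67Fb (0.50), higher in adults, on the log2 scale, and Cpr73D, 2.83-fold higher in adults.

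The stage difference can be set side by side in SO2A and control arrays with signals held to at least 90.4, which makes it a smaller value where 1 stage is that dim. Cpr49Ac then differed by -7.56 in SO2A arrays and by -8.83 in control arrays, and Cpr49Ab by 5.65 and 6.82. Cpr62Bb, whose mean was lower in SO2A adults and higher in SO2A larvae than in their controls, differed by 1.64 in SO2A arrays and by 3.38 in control arrays. The interaction of selection and stage was tested without this lower limit, so its values differ from the gaps between these pairs. It was 1.34 for Cpr49Ac (adjusted p = 0.415 from limma) and -1.41 for Cpr49Ab (adjusted p = 0.087 from limma). With the limit, Cpr49Ab had -1.17 (adjusted p = 0.000488 from limma). However, all of its SO2A larval signals (36.2 to 60.8) and most control larval ones (21.1 to 107) lay below 90.4. The limit set these to 1 value, so that result rests on the adult arrays and does not compare the stages. Cpr62Bb is given further on.

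Some neighbouring Cpr genes differed in stage and others shared one. At cytological site 49A, 8 Cpr genes on arm 2R lie within a short run of measured genes, and of these 5 were larval, 2 were adult (Cpr49Ab and Cpr49Ae) and 1 was in neither group. Among the Cpr genes of the site, Cpr49Ab is followed by Cpr49Ac and Cpr49Ae by Cpr49Af, so each adult member is followed by 1 of the 2 members furthest to the larval side. Cpr49Ac and Cpr49Ad, and Cpr49Af and Cpr49Ag, are neighbours that were both larval, as are Cpr65Av and Cpr65Aw at site 65A. The 8 probe sets of site 47E held 3 larval and 1 adult member, and the 3 of site 62B held 1 of each. Sites 65E, 72E and 76B, with 3, 3 and 4 probe sets, held no larval and no adult member.

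Of the 67 members, 33 (49.3%) were detected in no group, against 43.3% of all probe sets. Among them were Cpr66D and Cpr72Ec, 2 proteins known from the corneal lens of the fly eye, named here after their values were seen. Cpr66D had signals of 35.7 to 449 in SO2A adults and 177 to 503 in control adults, and Cpr72Ec of 34.8 to 434 and 64.0 to 346. Neither was above the median of any of the 24 arrays, so no difference in them was measurable here.

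In adults, the 7 Cpr probe sets detected in SO2A and in control adults alike had lower mean signals in SO2A flies. Of these, Cpr49Ab fell past the threshold, and Cpr49Ae, Cpr65Au and Cpr67B had every SO2A array below every control array without passing it. Such separation was seen for 2.73% of all probe sets with the same detection. Cpr92F was separated as well, but it was detected in control adults alone and is not 1 of the 7. Over all 67 members, 41 had a lower mean in SO2A adults, and the median difference was -0.21 on the log2 scale, against 0.06 over all probe sets. The single call among 67 (1.49%) compares with 0.357% of all probe sets called in either direction.

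Cpr49Ab had signals between 3735 and 6147 in SO2A adults with a median of 4236, and between 7843 and 13018 in control adults with a median of 10950. The highest SO2A array was below the lowest control array. The difference was -1.21 on the log2 scale (standard error 0.17), a 2.31-fold fall, with an adjusted p of 0.0183 from limma. In larvae this probe set stayed below the array median on every array of both groups, with medians of 50.7 in SO2A and 38.0 in control larvae.

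Cpr49Ae, its adult neighbour at site 49A, had signals between 3359 and 9135 in SO2A adults, with a median of 5873, and between 9472 and 18456 in control adults, with a median of 14295. The groups did not overlap, and the difference of -1.27 (standard error 0.31) had an adjusted p of 0.139 from limma. Cpr62Bb ranged between 570 and 1473 around a median of 906 in SO2A adults and between 1386 and 1987 around 1668 in control adults, overlapping on its highest SO2A arrays, with a difference of -0.80 and an adjusted p of 0.237 from limma. The adult probe set of Cpr47Ef overlapped fully between SO2A adults (467 to 1230) and control adults (435 to 1080), at -0.11.

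Of the 3 members present at both stages, each had non-overlapping adult arrays, with SO2A below control. Of the 7333 probe sets of the array that met the same criterion, 2.52% did. Control arrays alone set that criterion, and Cpr92F was not detected in SO2A adults. Cpr92F had signals of 113 to 758 with a median of 477 in SO2A adults and of 889 to 3508 with a median of 1890 in control adults. This was the largest adult difference among the 67 members, -2.34 (standard error 0.52), 5.08-fold, with an adjusted p of 0.101 from limma. Both groups varied by population, and population 3 was lowest in each: population means were 557, 583 and 143 in SO2A adults and 2261, 2752 and 967 in control adults. Cpr92F was above the array median on 2 of 6 arrays in SO2A adults and on 6 of 6 in control adults.

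Cpr65Au, which lies near the Lcp65A and Acp65Aa cuticle genes, had signals of 9842 to 16413 with a median of 12941 in SO2A adults and of 17990 to 30184 with a median of 22892 in control adults. The difference was -0.84 (standard error 0.18, adjusted p = 0.0951 from limma). Cpr67B had 1687 to 3073 with a median of 2815 in SO2A adults and 3359 to 4102 with a median of 3696 in control adults, a difference of -0.59 with an adjusted p of 0.246 from limma. In both genes the lowest control array stood clear of the highest SO2A array.

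**Figure D2:**
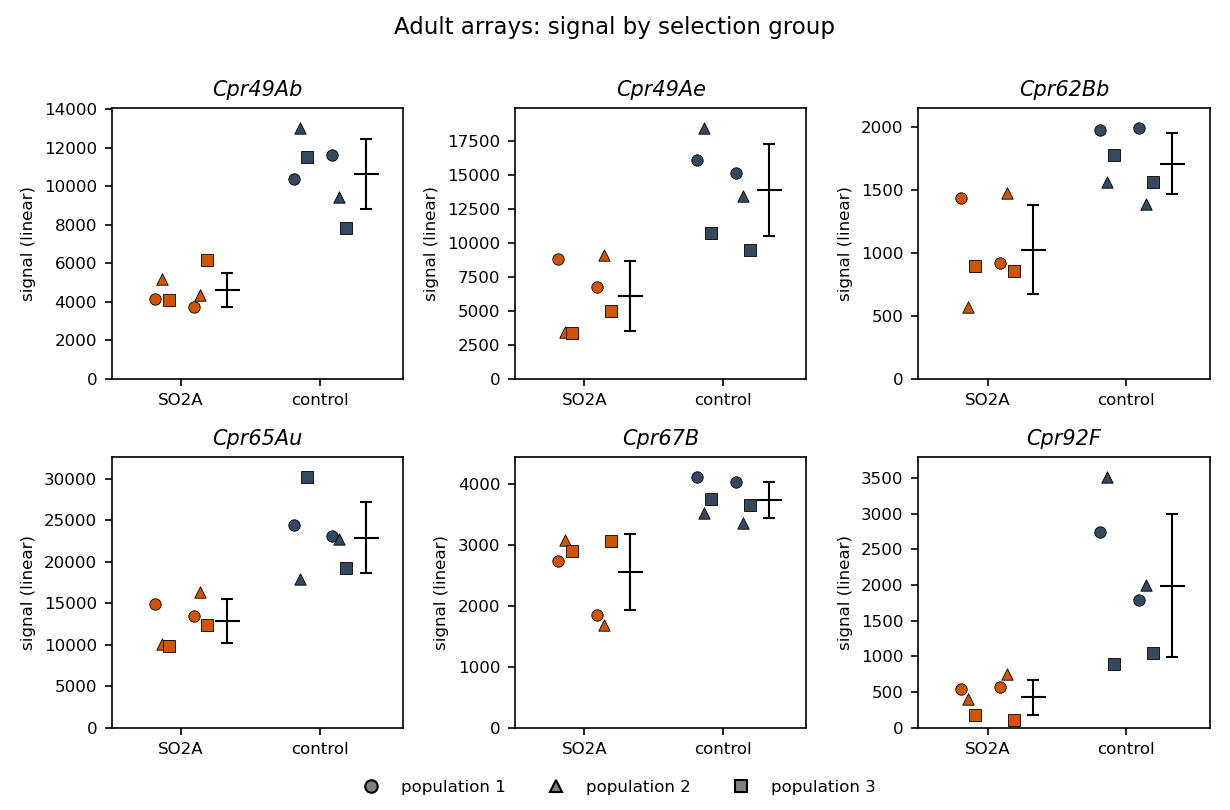
Signal on a linear scale of 6 Cpr probe sets on every adult array, SO2A left and control right, with marker shape giving the population and bars the mean ± SD of 6 arrays. The SO2A and control arrays do not overlap for Cpr49Ab, Cpr49Ae, Cpr65Au, Cpr67B and Cpr92F, and they do for Cpr62Bb.

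Complete separation with SO2A below control was seen for 6 of the 67 members in adults (8.96%), against 1.55% of all probe sets, and with SO2A above control for 0. The sixth, Cpr50Cb, chosen after its values were seen, was detected in no group. An unadjusted p under 0.05 with a lower mean was reached by 10 of 67 members (14.9%), against 5.74% of all probe sets. Of the 11 members detected in adults, 7 were detected in SO2A and in control adults alike, and all 7 had a lower mean in SO2A adults, where 45.3% of the 8931 probe sets with the same detection were lower. The remaining 4 were detected in control adults alone, so their lower mean follows from how they passed. Of these, Cpr100A ranged from 125 to 766 in SO2A adults and from 487 to 1267 in control adults (-0.74, adjusted p = 0.599 from limma).

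Among the larval members, most of which were not detected in adults, 13 of 24 had a lower mean in SO2A adults, with a median of -0.10 and no call. A list of R&R cuticle genes with other symbols was examined beside the family, of whose 15 measured members 1 met the adult and 5 the larval stage criterion. Acp65Aa, a cuticle protein of the adult and the 1 in question, averaged 1162 in SO2A adults and 5443 in control adults, a difference of -2.43 with an adjusted p of 0.064 from limma. Of the list, 0 of the 15 were called at either stage (in adults, 1 was lower and 2 higher at an unadjusted p under 0.05). Markers of other adult tissue did not share a direction. The flight muscle genes TpnC4, fln and Act88F were called lower in SO2A adults (-4.07, -3.34 and -2.70), where 0.277% of all probe sets were. They were the only 3 of 10 measured adult markers with a lower mean. The list had a median of 0.29, and 2 members were higher at an unadjusted p under 0.05 by limma. Its summed signal was 512678 to 573659 in SO2A adults and 385698 to 599294 in control adults, with none at 0. The part of the adult markers in the Cpr differences was not tested.

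The call on Cpr49Ab did not hold when the arrays were centred on their medians (-1.29, adjusted p = 0.0545 from limma). Leaving out 1 population in turn kept it between -1.28 and -1.10, and the adjusted p passed the threshold only without SO2A population 3 (0.0468), reaching 0.114 without control population 1.

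In larvae, 3 members fell past the threshold in SO2A and none rose. These were Cpr78E and Cpr78Ca of the larval group and Cpr65Au of the group of both stages, 4.48% of the family, against 1.65% of all probe sets called in either direction. Of the larval group alone 8.33% were called, all lower. Of all probe sets that met the larval criterion 9.49% were called in either direction and 3.95% lower. Over all 67 members, 49 had a lower mean in SO2A larvae, and the median difference was -0.44, against -0.11 over all probe sets. An unadjusted p under 0.05 with a lower mean was reached by 18 members (26.9%, against 10.4% of all probe sets).

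Cpr78E had signals between 6268 and 24968 in SO2A larvae with a median of 11726, and between 28802 and 47633 in control larvae with a median of 37612. The groups did not overlap, and the difference was -1.58 on the log2 scale (standard error 0.32, 2.98-fold, adjusted p = 0.0331 from limma). The SO2A populations were spread, with means of 7408, 11726 and 23219, whereas the control means were 38518, 32782 and 42121. In adults it was below the array median on every array of both groups.

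Cpr78Ca had signals of 604 to 1178 with a median of 743 in SO2A larvae and of 1269 to 2019 with a median of 1534 in control larvae. Its groups stood apart as well, with a difference of -1.03 (standard error 0.20, 2.04-fold, adjusted p = 0.0273 from limma). Cpr65Au had 1899 to 3390 with a median of 2265 in SO2A larvae and 3239 to 9725 with a median of 6954 in control larvae. Here the highest SO2A array passed the lowest control array, and the difference was -1.40 (standard error 0.28, 2.64-fold, adjusted p = 0.0303 from limma).

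Among the other members with large larval differences, Cpr12A had medians of 1854 in SO2A larvae and 4219 in control larvae (-1.35, standard error 0.36, adjusted p = 0.0885 from limma), with an overlap of 1 array. Cpr67Fa2 differed by -1.03 with arrays of 676 to 2760 in SO2A larvae and of 753 to 6033 in control larvae (adjusted p = 0.362 from limma). Cpr67Fa1 and Cpr67Fa2 are near-identical copies, and how far their probe sets tell them apart was not checked. Cpr47Eg had a higher mean in SO2A larvae, but its arrays ran from 2160 to 26377 in SO2A larvae and from 1293 to 25815 in control larvae, and the difference of 1.00 had a standard error of 0.90. Cpr49Ac, with medians of 29913 in SO2A larvae and 41972 in control larvae, differed by -0.71 (adjusted p = 0.13 from limma). Its population means were 16987, 29913 and 34020 in SO2A larvae and 38878, 38947 and 50109 in control larvae.

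**Figure D3:**
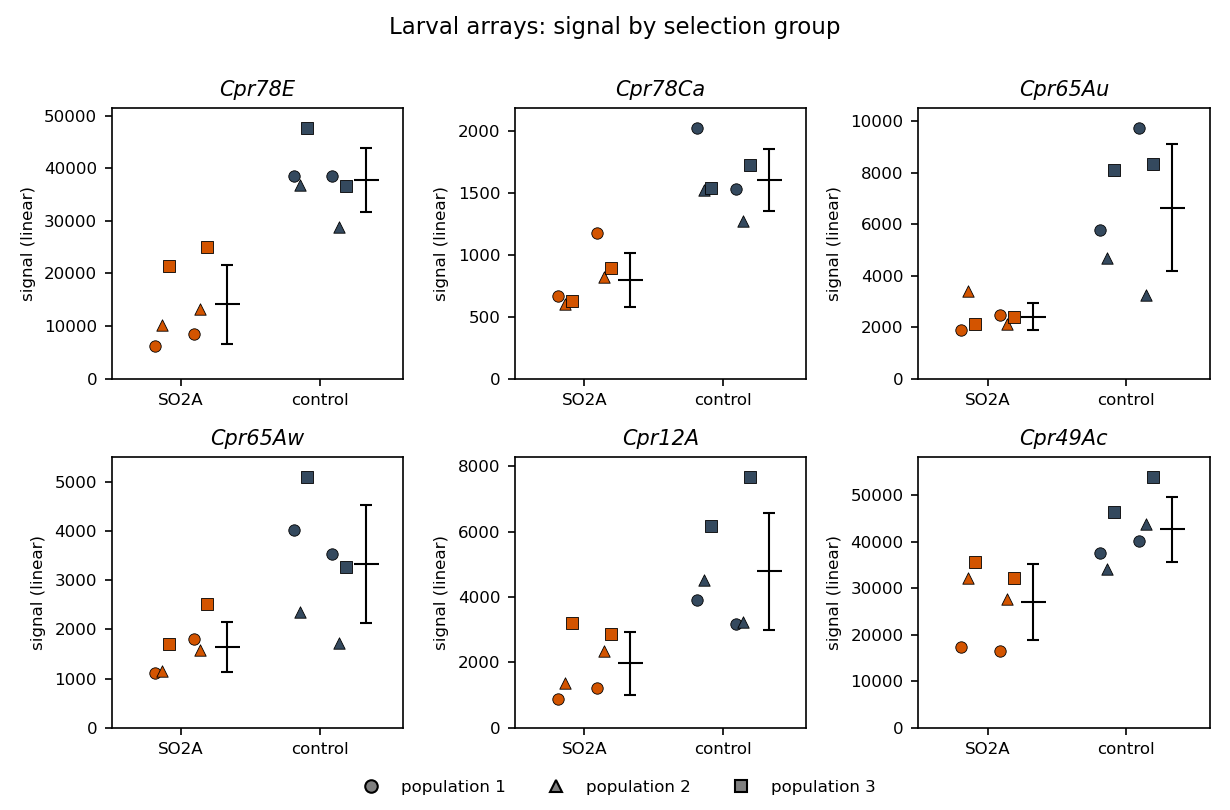
Signal on a linear scale of 6 Cpr probe sets on every larval array, SO2A left and control right, with marker shape giving the population and bars the mean ± SD of 6 arrays. Cpr78E and Cpr78Ca do not overlap between the groups, whereas Cpr65Au, Cpr65Aw, Cpr12A and Cpr49Ac overlap on their nearest arrays.

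Lower larval signals ran through most of the larval group. Of its 24 probe sets, 21 had a lower mean in SO2A larvae, with a median of -0.58 and a range of -1.58 to 1.00, and 11 reached an unadjusted p under 0.05. Of the 1064 probe sets of the whole array that met the same stage criterion, 594 (55.8%) were lower, with a median of -0.09, and 25.2% were lower at an unadjusted p under 0.05 (45.8% of the larval members). Since control larvae helped to choose both sets, neither is independent of the comparison. The 28 members detected in SO2A and in control larvae alike had 24 lower means and a median of -0.60, against 61.3% lower and -0.09 for 8896 probe sets with the same detection. Complete separation below control was reached by 3 members (Cpr78Ca, Cpr78E and, chosen after its values were seen, Cpr97Eb), 4.48% against 2.27% of all probe sets. All 4 probe sets of site 65A and all 3 of site 78C had lower means in SO2A larvae, and 0 of 3 at site 62B did. These sites were picked after their values were seen, and 61.3% of all probe sets were lower. Cpr65Az, Cpr78Cb, Cpr62Ba and Cpr62Bb were below the array median on every larval array, so these counts do not show that a site moved together.

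**Figure D4:**
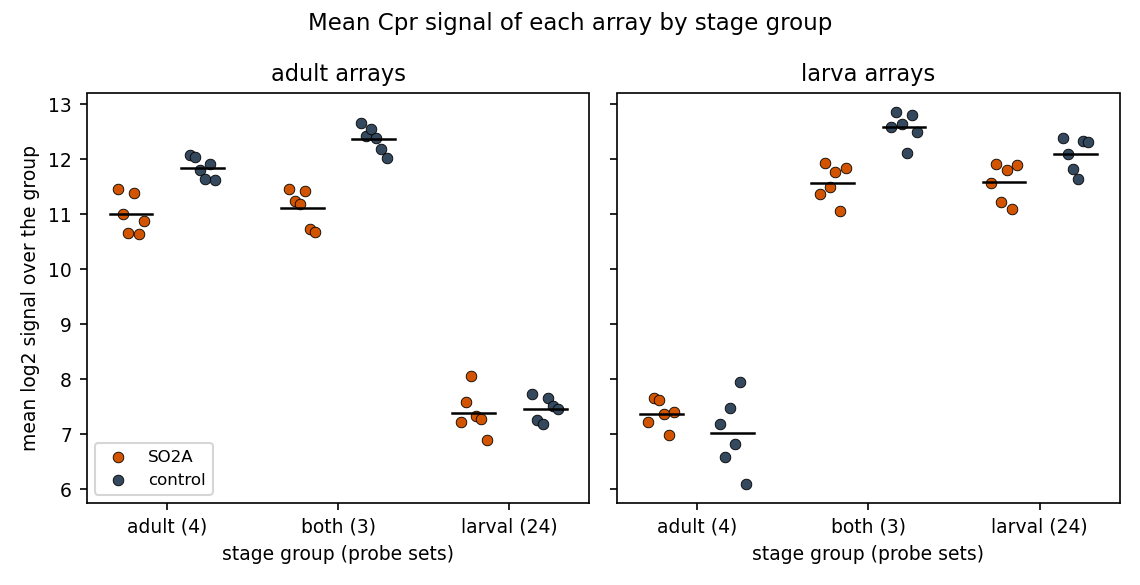
Mean log2 signal over the adult (4), both (3) and larval (24) stage groups on each array, adult arrays on the left panel and larval arrays on the right, SO2A in orange and control in blue, with a line at the mean of 6 arrays. The adult and both groups are separated in adults, the both group is separated in larvae, and the larval group overlaps in larvae.

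Averaged over its members, the adult group had mean log2 signals of 10.65 to 11.47 on SO2A adult arrays and 11.63 to 12.08 on control adult arrays. The group of both stages had 10.67 to 11.46 in SO2A adults and 12.03 to 12.67 in control adults, and 11.06 to 11.93 in SO2A larvae and 12.12 to 12.86 in control larvae. These 3 comparisons showed no overlap. The larval group had 11.10 to 11.92 on SO2A larval arrays and 11.65 to 12.39 on control larval arrays, with overlap. Control arrays set the groups, and no test was made of these averages.

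Several genes that build or tan the cuticle fell in SO2A larvae. Of 16 measured genes of chitin synthesis and chitin-matrix assembly, 4 were called lower and 0 higher, with a median of -0.66. They were Gfat1 (-0.86), which makes a precursor of chitin, the chitinase Cht10 (-1.45), knk (-0.78) and reb (-1.15), both needed for the chitin matrix. Over all probe sets 0.778% were called lower in larvae, and 3.95% of those that met the larval stage criterion. In adults 1 of the 16 was called, Gasp, a chitin-binding protein (-1.04), where 0.277% of all probe sets were called lower. Of 13 measured tanning and pigment genes, yellow-e (-1.24) and yellow-h (-0.96) were called lower in larvae, with a median of -0.54 over the list, and 0 were called in adults (by limma, 3 were lower at an unadjusted p under 0.05). That limit was reached with a lower mean by 5.74% of all probe sets in adults. Of 14 measured genes of the ecdysone response, 0 were called in either stage by limma. In larvae 6 were lower at an unadjusted p under 0.05, a limit reached with a lower mean by 10.4% of all probe sets. ImpE2 (-2.08) and Eip93F (-1.98), both among the 6, had the largest differences. Eip93F was dim in larvae, with mean signals of 7.67 in SO2A and 50.9 in control, too low for detection at that stage. Its value therefore does not show a larval fall, though it is counted in the 6.

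Among larval tissue markers, the salivary glue genes had lower means as well. The serum protein Lsp2 hardly differed (-0.03, standard error 0.1). All 7 markers measured, 6 glue genes and Lsp2, had lower means in SO2A larvae, where 61.3% of all probe sets did. Their summed signal was 491827 to 752571 in SO2A larvae and 703040 to 877021 in control larvae. Of these, 0 were called by limma, 3 had an unadjusted p under 0.05, and none was at 0. That limit was reached with a lower mean by 10.4% of all probe sets in larvae. Sgs1 had the largest difference, -1.61 (adjusted p = 0.108 from limma). The part of these markers in the Cpr differences was not tested.

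Centring the arrays on their medians moved the median of all probe sets in larvae by more than 0.1, to 0.07 (-0.00 after quantile normalization). The calls over all probe sets then split into 164 higher and 27 lower, against 163 higher and 146 lower as deposited. No larval Cpr call held with that centring: Cpr78E had -1.40 (adjusted p = 0.0834), Cpr65Au -1.22 (0.0722) and Cpr78Ca -0.85 (0.0513), all from limma and all still lower. The 3 calls were also lost without control population 3 (adjusted p of 0.172, 0.174 and 0.148), where 42 probe sets of all were called higher and 19 lower, and each passed in 1 of the 6 fits that left out a population.

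The selection effect was then compared between the stages, as the adult difference minus the larval difference over all 24 arrays. It passed the threshold for 2 of 67 members (2.99%), against 1.97% of all probe sets. The median of this measure was 0.16 over the family and 0.16 over all probe sets, and for all probe sets it moved to -0.10 with the arrays centred on their medians. Cpr62Bb had -1.82 (standard error 0.47, adjusted p = 0.0451 from limma). Its adult mean was lower in SO2A, as given above, whereas its larval signals were 181 to 385 in SO2A and 67.5 to 362 in control, all below the array medians, a larval difference of 1.02. Cpr65Aw had 1.91 (standard error 0.46, adjusted p = 0.0356 from limma). Its larval signals had medians of 1641 in SO2A and 3401 in control (-0.99), and its adult signals, also below the array medians, had medians of 256 in SO2A and 174 in control (0.92).

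Both interactions therefore join a stage where the gene was detected to one where it was not. Cpr65Aw was not called after centring on array medians (1.64, adjusted p = 0.109 from limma) or quantile normalization (1.61, 0.106), and its adjusted p was 0.0378 to 0.159 with 1 population left out. Cpr62Bb was called under both (-2.09 and adjusted p = 0.0259 from limma with centring), but its adjusted p lay between 0.0711 and 0.133 with any 1 population left out. For Cpr78Ca the interaction was 1.61 and for Cpr12A 1.57, with adjusted p of 0.126 and 0.147 from limma.

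**Figure D5:**
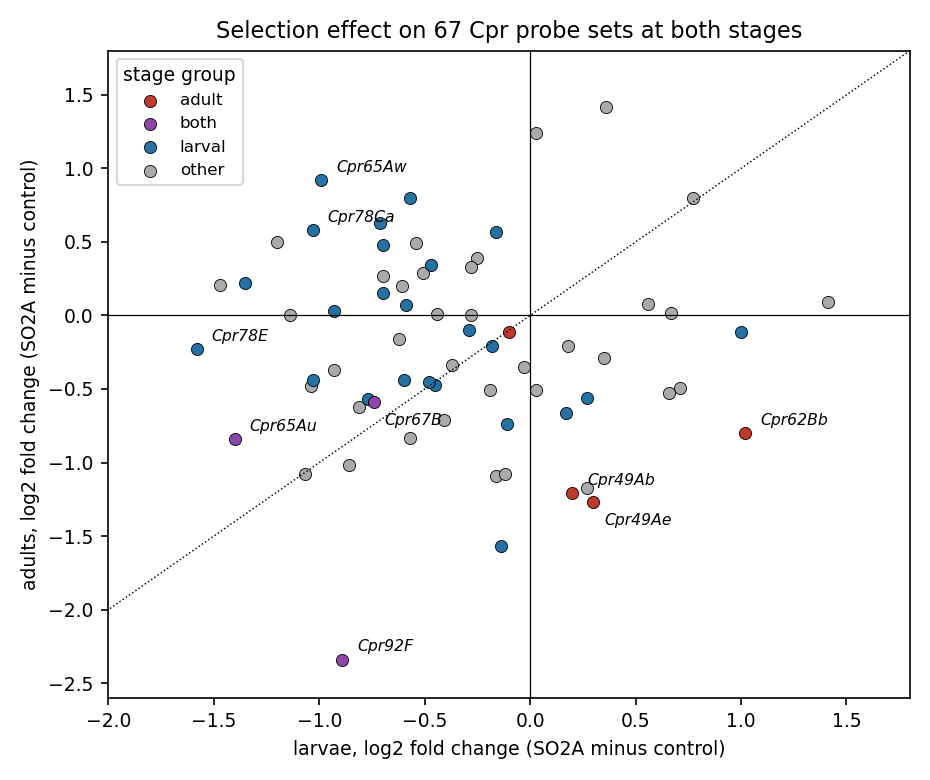
Log2 fold change (SO2A minus control) of 67 Cpr probe sets in adults (vertical axis) and in larvae (horizontal axis), coloured by stage group, with equal change on the dotted line. All 3 members of the both group are lower at both stages. Cpr49Ab, Cpr49Ae and Cpr62Bb are lower in adults, with larval mean log2 signals above control, though Cpr49Ab and Cpr62Bb were not detected in larvae.

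Cpr65Au was above the array median on all 24 arrays and differed by -0.84 in adults and by -1.40 in larvae. Its interaction of 0.56 (standard error 0.31, adjusted p = 0.348 from limma) did not pass the threshold. The corresponding interaction was 0.15 for Cpr67B (adjusted p = 0.82 from limma) and -1.46 for Cpr92F (standard error 0.57, adjusted p = 0.181 from limma). Over the adult group, all 4 interactions were negative (-1.82 to -0.01), with a median of -1.49. Of all probe sets that met the adult criterion 45.3% were negative, with a median of 0.05. Over the larval group 17 of 24 were positive and 29.2% negative, with a median of 0.62. Of all probe sets that met the larval criterion 43.6% were negative, with a median of 0.11, and of all probe sets of the array 37.3% were. The groups were set from control arrays that enter both differences, and these counts were not tested.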

How the data were processed

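RNA of adults and larvae was measured on 24 Affymetrix arrays, and the authors deposited a linear intensity value for each probe set on each array. Both MBEI (dChip) and RMA are named in the methods for background and normalization. The sources used here do not give how the deposited values were made, by either of these or otherwise. The values had been scaled to a common trimmed mean and were not normalized again. Of 18952 probe sets, 183 controls were left out.

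Groups, populations and array numbers came from the sample labels. Signals were taken as log2 (lowest value 1.0) and fitted by lmFit and eBayes of limma 3.58.1 (R 4.3.3). Arrays of 1 population formed a random block. The within-block correlation was estimated with duplicateCorrelation (statmod 1.5.0) at 0.133 in adults, 0.153 in larvae, 0.0425 for the interaction and 0.142 between stages, where the block was population and stage. With 3 populations per group, their number limits the precision.

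Gene symbols came from the platform annotation and all 67 members matched RefSeq Release 6 by gene identifier. That table also gave the order of genes. Members and gene lists were chosen with earlier results of these data known. Named members were those called, the 6 largest changes among members detected at each stage, the 4 largest interactions, the 4 leading members of each stage group and the Cpr genes of the study's gene list. Of each gene list, called members were named, or up to 2 with the largest change. The fits were tested on simulated data. Alternatives covered the normalization, block, floor, dim probe sets, test and populations. Python 3.11.15, pandas 2.3.3, numpy 2.4.6 and matplotlib 3.10.9 made tables and plots.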

Additional observations from a re-analysis of the deposited data

Results flagged for a closer look

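In 3 of 68 sets of 6 arrays examined for the named members, 1 array lay far from the other 5, where chance gives about 3.4 (1 in 20). Cpr49Ac had a signal of 589.0 on array 1 of SO2A adult population 2, against 168 or less on the others, with a gap to the nearest of 0.74 of the range of the group in linear signal. Cpr49Af had 112.9 on array 1 of control adult population 3, with a gap of 0.669. Cpr62Bb had 181.3 on array 1 of SO2A larval population 1, with a gap of 0.657. All 3 lie below the median of their array.

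The selection effect differed between adults and larvae for Cpr65Aw (1.91 on the log2 scale, adult minus larval difference, adjusted p = 0.0356 from limma) and for Cpr62Bb (-1.82, adjusted p = 0.0451 from limma).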

How the results depend on the processing

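No called single-gene value changed direction under the alternatives run, whereas some that were not called did with 1 population left out. Of all single-gene values, 626 kept their side of the threshold, 16 came to pass it and 43 no longer passed it. The adult count of 1 Cpr call became 0 with the arrays centred on their medians or with 1 mean per population, and 2 with arrays taken as independent. It became 3 with dim probe sets left out, and 2 with the methods' t-test after Benjamini-Hochberg or 0 at the methods' Bonferroni and fold limits. The larval count of 3 became 0 with centring, population means and the Bonferroni limit, 5 with the floor, 6 with dim probe sets left out and 6 with the methods' t-test after Benjamini-Hochberg. The interaction count of 2 became 1 with centring, 0 with population means and 4 with dim probe sets left out. With 1 mean per population limma called 0 of 18769 probe sets in adults, larvae and the interaction alike (1681, 2257 and 2076 at an unadjusted p under 0.05), so that alternative says nothing of single genes. Leaving out 1 population gave 0 to 1 calls in adults, 0 to 2 in larvae and 0 to 3 in the interaction. Between stages, the 36 calls stayed within 1.5 times under every alternative run.

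The population number as a replicate block gave 2 calls in adults, 9 in larvae and 1 in the interaction. In the selection comparisons the numbers only name chambers. Deviations of same-numbered populations correlated at -0.358 to -0.012 in adults and 0.066 to 0.323 in larvae, not above 0.1 for every pair, so the block was not used. Between stages, where 1 number is 1 population, they correlated at 0.046 to 0.21.

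The larval median of -0.58 over members detected in larvae was -0.40 with centring, -0.45 with quantile normalization and -0.78 to -0.45 with 1 population left out. Over all probe sets, calls split into 15 higher and 52 lower in adults (0 and 14 with centring), and into 190 and 179 in the interaction (42 and 286 with centring). The group of both stages held 0 members with 2-fold in place of 4-fold, and 13 with the 30th percentile as detection limit, which left 23 members outside the groups. With groups set from SO2A arrays, 58 of 67 members kept their group. Cross-hybridization and the signal of blank arrays were not measured, so low signals have no order.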
